A study of Mus musculus with 8 samples.

Results

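The Serpina3 family of the mouse is a run of neighbouring genes on chromosome 12 that encode clade A serpins. The members were taken as every array probe whose gene name was Serpina3a, Serpina3b, Serpina3c, Serpina3f, Serpina3g, Serpina3h, Serpina3i, Serpina3k, Serpina3m or Serpina3n, which gave 14 probes of 10 genes among 56605 probes on the array. Brain tissue holding cerebral cortex and striatum came from 4 BTBR/R males (the BTBRTF/ArtRbrc subline) and 4 B6 males (C57BL/6J), and the total RNA of each mouse was hybridized to its own Agilent 1-colour array. B6 mice were 4 months old, as were BTBR/R mice except replicate 1, which was 6 months old. BTBR/R is an inbred line that carries the T (brachyury), tufted Itpr3 and black and tan mutations, and an effect of 1 allele and an effect of the rest of the background cannot be told apart. The question addressed here was whether the higher signal of Serpina3n in BTBR/R mice was shared by its neighbours in the cluster.

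Serpins are protease inhibitors that act as suicide substrates: the protease cuts an exposed loop, the serpin refolds and the enzyme stays trapped. Humans have a single SERPINA3 gene, alpha-1-antichymotrypsin, whereas repeated duplication has given the mouse a cluster of closely related copies whose exposed loops differ. Serpina3n is secreted, inhibits proteases such as granzyme B and leukocyte elastase, and in the brain is best known as a gene of reactive astrocytes and of oligodendrocytes in disease models.

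All values below are scaled signals, that is, the log2 processed signal of a probe minus the 75th percentile of the same array. A probe counted as detected where the scanner software flagged it as well above background, and a probe was called when limma gave an adjusted p below 0.05 and a difference of at least 2-fold. The software flagged 64.5% to 66.8% of probes in B6 samples, compared with 53.5% to 57.2% in BTBR/R samples. The lowest detected signal ranged from 14.5 to 17.8 intensity units in B6 samples, compared with 36.1 to 47.1 in BTBR/R samples. Of 14874 probes detected on no array, 67.7% were called higher in BTBR/R mice, against 1.04% of probes detected on all 8 arrays. The 8 arrays shared 1 slide and 1 scan, but each strain filled its own column of the slide, and these effects cannot be told apart. The RNA came from whole tissue, in which fewer cells of a type and less RNA per cell cannot be told apart.

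Only Serpina3n was detected on all 8 arrays. Its probe lies at chr12:105651918-105651977 (mm9, plus strand), and no RefSeq accession of another gene was listed for it. The first of the pair of primers with which the study amplified its Serpina3n in situ hybridization probe overlaps the array probe, and it is shown because both assays cover these bases of the transcript. Capitals mark the 19 bases that are also the first 19 bases of the array probe.
Serpina3n in situ hybridization primer: ccTTGGCATGCCTGGATTAGA

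The scaled signal of Serpina3n was -2.51, -2.74, -2.83 and -2.50 in B6 replicates 1 to 4. It was 0.98, 0.88, 1.04 and 1.09 in BTBR/R replicates 1 to 4. Every BTBR/R mouse lay above every B6 mouse, and the distance between the strains was far wider than the spread within either. The mean was -2.64 ± 0.16 (SD, n = 4) for B6 and 0.998 ± 0.088 (SD, n = 4) for BTBR/R, a difference of 3.64 (SE 0.09) on the log2 scale or 12.5-fold (limma, adjusted p = 1.03e-06). By size this difference ranked 7 among the 298 probes that were called higher and detected on all 8 arrays. Without the mouse aged 6 months the log2 difference was 3.65.

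Of the 14 family probes, 8 were called higher in BTBR/R mice and 0 were called lower, where 20.2% of all probes were called higher and 2.27% lower. The strains did not overlap for 8 of them, with BTBR/R mice above B6 mice, as for 29.8% of all probes. This count rested mainly on dim probes, because 6 of the 8 were detected on no array and 67.7% of such probes were called higher across the array. Of the 2 others, Serpina3n was detected on all 8 arrays and Serpina3i on the 4 BTBR/R arrays alone. With normexp background correction, with quantile normalization or with a floor at the highest detection limit, the number of called family probes was 2, and these were the probes of Serpina3n and Serpina3i, where the share of all probes called higher was 0.408%, 0.961% and 0.488%.

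**Figure D1:**
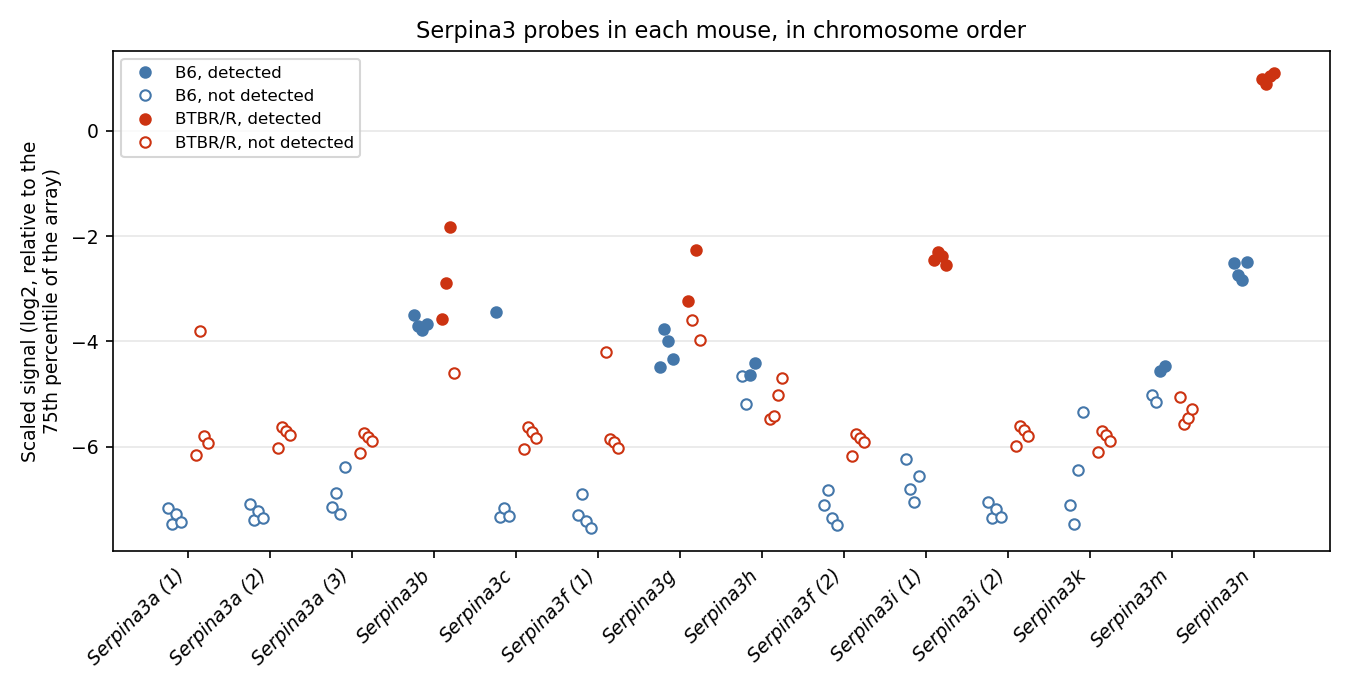
Scaled signal (log2, vertical axis) of the 14 Serpina3 probes in each of 4 B6 mice (blue) and 4 BTBR/R mice (red), in chromosome order from left to right. Filled points were well above background and open points were not. Serpina3n is the only probe filled in all 8 mice, and the first Serpina3i probe is filled in all 4 BTBR/R mice and in no B6 mouse.

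Serpina3i has been studied little, and its pair of probes gave different readings. The probe at chr12:105504738-105504797 (mm9) was at -6.24, -6.80, -7.06 and -6.56 in B6 mice and was not well above background in any of them. In BTBR/R mice it was detected in all 4, at -2.46, -2.30, -2.38 and -2.55. The strains did not overlap, and the 4 BTBR/R values lay within a narrow band. Because the B6 signal was only bounded, the fold is given as the BTBR/R mean over the lowest level that could be detected on the B6 arrays, and BTBR/R mice were at least 6.63-fold higher by that limit (limma, adjusted p = 7.7e-06 for the fitted log2 difference of 4.24). The size depended on how the background was handled. The log2 difference was 1.29 with normexp background correction and 1.13 with a floor at the highest detection limit of the 8 arrays, which belongs to a BTBR/R array, and both are smaller than the bound set by the B6 arrays. The probe was called under each.

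The second Serpina3i probe, at chr12:105506705-105506764, was well above background on no array, with values from -7.36 to -7.06 in B6 mice and from -6.00 to -5.60 in BTBR/R mice. These levels were close to those of the other undetected probes on the same arrays. Its letters are shown beside those of the Serpina3h probe because they are the closest pair of probes of different genes in the family. They matched at 53 of 56 aligned bases, and capitals mark the 22 bases they have in common without interruption. The first Serpina3i probe has no run of 12 or more bases in common with a probe of another clade A serpin, and it is printed in lower case throughout.
Serpina3i probe 1: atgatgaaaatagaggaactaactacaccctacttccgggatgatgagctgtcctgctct
Serpina3i probe 2: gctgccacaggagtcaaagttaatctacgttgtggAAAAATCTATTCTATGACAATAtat
Serpina3h probe: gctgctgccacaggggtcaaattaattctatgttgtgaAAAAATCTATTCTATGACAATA

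The longest exact run between the Serpina3n probe and any probe of another gene was 14 bases of 60, and for the first Serpina3i probe it was 13 bases. Whether transcripts of one member bind the probe of another was not tested, since transcript sequences were not used here. The array was designed on the B6 sequence, and whether a base of the BTBR/R genome differs under any of these probes was not tested.

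Serpina3b and Serpina3g were the remaining members detected in every B6 mouse, and neither was called. Serpina3b was at -3.51, -3.71, -3.79 and -3.67 in B6 mice and at -3.58, -2.88, -1.82 and -4.61 in BTBR/R mice, where replicate 4 was not well above background. The BTBR/R values lay on both sides of the B6 values and spread widely (SD 1.17, against 0.12 in B6 mice). The log2 difference was 0.45 (SE 0.54; limma, adjusted p = 0.552), and it was -0.022 without BTBR/R replicate 3.

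Serpina3g, also known as Spi2A, is an intracellular serpin of immune cells that inhibits cathepsins. Its probe was at -4.49, -3.77, -3.99 and -4.34 in B6 mice and at -3.23, -3.59, -2.27 and -3.98 in BTBR/R mice, of which replicates 1 and 3 were detected. BTBR/R replicate 4 lay within the B6 range and the other 3 BTBR/R mice lay above it. The log2 difference was 0.89 (SE 0.37; limma, adjusted p = 0.0951). Without BTBR/R replicate 4 it was 1.12 with an adjusted p of 0.0459 in limma, which passed the threshold. The difference was 0.55 without BTBR/R replicate 3, 0.37 with normexp and 0.40 with the floor, and it was called in none of these.

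The remaining members gave no fold. Serpina3k, a plasma inhibitor of tissue kallikrein, was well above background on no array (B6 -7.48 to -5.35, BTBR/R -6.11 to -5.71). None of the 3 Serpina3a probes or the pair of Serpina3f probes was well above background in any mouse, and their fitted differences of 1.03 to 1.92 lay within a range where most undetected probes were called. The second Serpina3f probe, at chr12:105492556-105492615, lists accessions of both Serpina3f and Serpina3h, so it stands for either gene.

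Serpina3c was detected in a single mouse. Its values were -3.44, -7.35, -7.16 and -7.31 in B6 mice and -6.05, -5.63, -5.72 and -5.83 in BTBR/R mice. B6 replicate 1 alone was well above background, and the other 7 mice were at background levels.

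Serpina3h, annotated by RefSeq as a transcribed pseudogene, and Serpina3m were each detected in B6 replicates 3 and 4 and in no BTBR/R mouse. The Serpina3h probe was at -4.65, -5.19, -4.64 and -4.41 in B6 mice and at -5.47, -5.42, -5.02 and -4.70 in BTBR/R mice. The strains overlapped. Serpina3m, whose probe lies nearest to that of Serpina3n at 19.6 kb, was at -5.03, -5.15, -4.57 and -4.46 in B6 mice and at -5.06, -5.57, -5.46 and -5.29 in BTBR/R mice. One BTBR/R value lay within the B6 range and the other 3 lay below it. Neither probe was called, and since no BTBR/R value was well above background, no difference is given for either. The B6 values of both lay below the lowest levels that could be detected on the BTBR/R arrays (-3.97 to -3.55).

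The difference of Serpina3n was next set against those of Serpina3b and Serpina3g, using the difference between the probes within each array. The change of Serpina3n exceeded that of Serpina3b by 3.20 and that of Serpina3g by 2.76 on the log2 scale, each with an exact two-sided permutation p of 0.0286, which is the smallest that 4 arrays against 4 allow (0.0286 after adjustment over 3 comparisons, the third being with Serpina3i). The B6 level of Serpina3i was below background and the sign of its comparison with Serpina3n turned with the way background was handled, so no order between the changes of these 2 genes can be given.

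**Figure D2:**
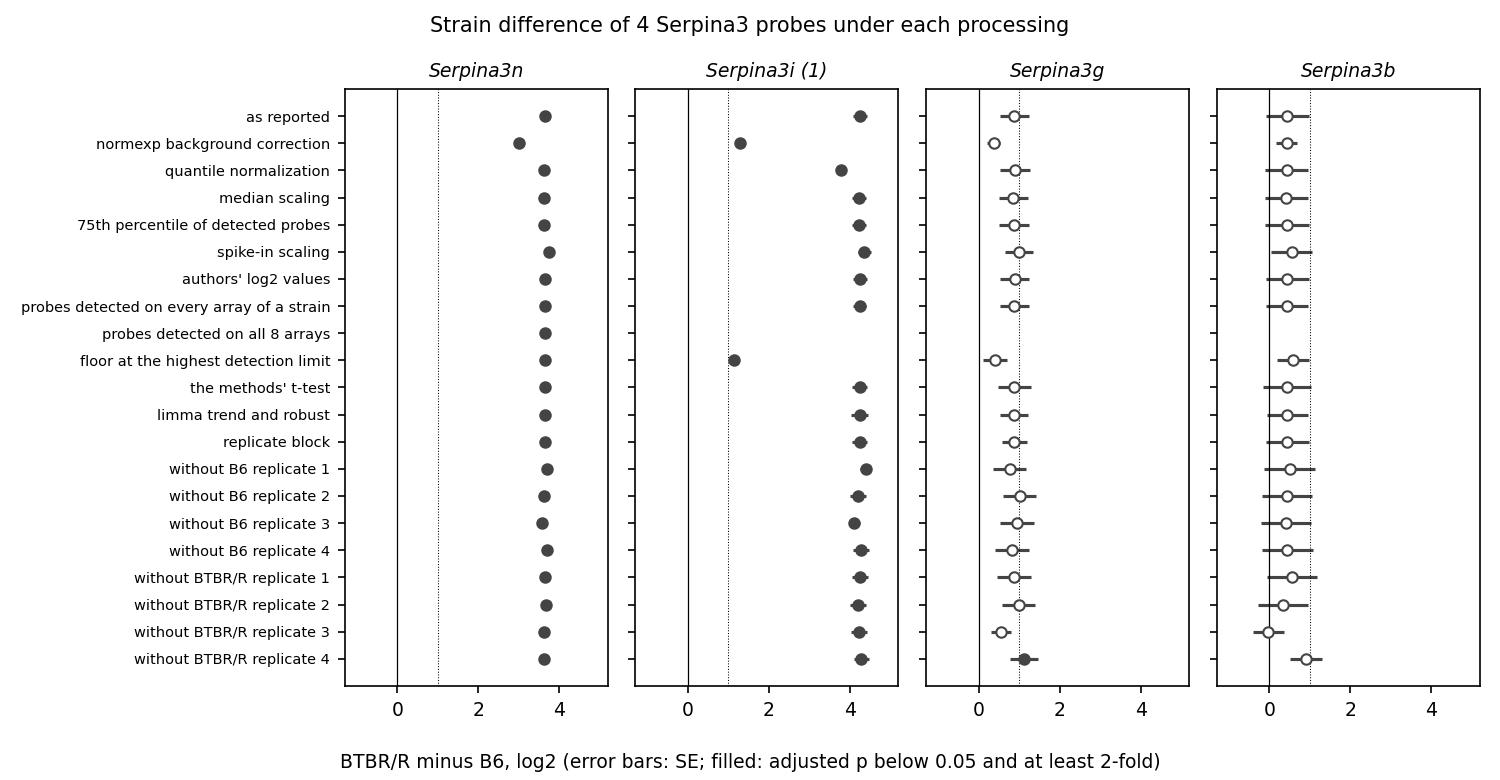
BTBR/R minus B6 difference (log2, horizontal axis, with SE) of the Serpina3n, first Serpina3i, Serpina3g and Serpina3b probes under each processing, 1 per line. Filled points passed an adjusted p of 0.05 and 2-fold. Serpina3n stayed between 2.99 and 3.75, and Serpina3i ranged from 1.13 to 4.39.

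Further along chromosome 12, the 500 kb to either side of the cluster and the gaps inside it held 37 probes of other genes, of which 18 were called higher and 0 lower, where 20.2% of all probes were called higher. Of these 18, 9 were detected on no array, a class in which 67.7% were called higher, and 2 were detected on all 8 arrays. Before the cluster, towards the Serpina1 genes, 15 of 21 probes were called higher, 7 of them detected on no array. After Serpina3n, 1 of 12 was called higher and it was detected on no array. All 5 probes of Dicer1, the endonuclease that makes microRNAs, were detected on all 8 arrays with differences from -0.21 to 0.02. Whether the 2 sides differed was not tested.

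Within the cluster, Serpina3j is a clade A serpin that was not among the listed members. It was detected in 3 BTBR/R mice (replicates 1, 3 and 4) and in no B6 mouse, at -5.52, -5.36, -6.82 and -5.53 in B6 mice and at -3.40, -3.81, -3.43 and -3.49 in BTBR/R mice. The strains did not overlap, and by the limits of the B6 arrays BTBR/R mice were at least 3.08-fold higher (limma, adjusted p = 0.000967). The call was lost with normexp background correction (log2 difference 0.60) and with the floor at the highest limit of the 8 arrays (0.082), which lies at about the BTBR/R level of this probe.

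The Serpina1 genes, which encode alpha-1-antitrypsin, the main plasma inhibitor of leukocyte elastase, were called higher by all 7 probes of Serpina1a to Serpina1e, where 20.2% of all probes were. Of the 7, 2 were detected on all 8 arrays, where 1.04% of probes so detected were called higher. Serpina1b was detected in every mouse, at -3.31, -3.40, -3.34 and -3.65 in B6 mice and at -1.74, -1.63, -2.22 and -1.77 in BTBR/R mice. One Serpina1e probe was detected in every mouse as well, at -4.49, -5.00, -4.65 and -4.94 in B6 mice and at -2.87, -2.65, -3.15 and -3.37 in BTBR/R mice. Neither pair of groups overlapped, and the log2 differences were 1.58 (SE 0.14; limma, adjusted p = 6.07e-05) and 1.76 (SE 0.19; limma, adjusted p = 0.00017). With normexp background correction these differences fell short of 2-fold, at 0.96 and 0.83, and with the floor the Serpina1e probe was at 0.54 (limma, adjusted p = 0.0808). One of the pair of Serpina1a probes, the Serpina1c probe and the other Serpina1e probe were detected in all BTBR/R mice and in no B6 mouse. By the limits of the B6 arrays BTBR/R mice were at least 19.7-fold, 20.6-fold and 13.0-fold higher. With the floor at the highest limit of the 8 arrays the log2 differences were smaller, at 2.70, 2.76 and 2.09, and with normexp they were 2.51, 2.53 and 1.81. The second Serpina1a probe and Serpina1d were detected in 1 BTBR/R mouse each and in no B6 mouse, so no fold is given for them. Both calls were lost with normexp (log2 differences 0.65 and 0.55) and with the floor (0.13 and 0.14).

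No other clade A serpin that was detected in every mouse was called. Serpina9, a serpin of germinal-centre B cells, was detected by both probes in every mouse with log2 differences of 0.29 and 0.36, and Serpina11 with 0.44. Agt, the angiotensinogen precursor, which lies outside the cluster, had -0.20 (SE 0.39; limma, adjusted p = 0.725), with B6 replicate 1 at 2.47 and the other 7 mice between 0.64 and 1.65, and it was 0.17 without that mouse. Serpina1f was detected in every B6 mouse and in no BTBR/R mouse. Its B6 mean of -3.95 lay within the range of the BTBR/R detection limits (-3.97 to -3.55), and no fold could be given. Serpina10 was detected at 1 probe in 7 mice, with a difference of 1.22 (SE 0.61; limma, adjusted p = 0.158). Without BTBR/R replicate 4, the mouse in which it was not detected, the difference was 1.84 and was called (limma, adjusted p = 0.00248). Without BTBR/R replicate 1 the difference was 0.82 and was not called. Serpina4-ps1 was detected in 1 B6 mouse and Serpina5 in 1 BTBR/R mouse. Serpina6, Serpina7, Serpina12 and Serpina16 were well above background on no array.

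**Figure D3:**
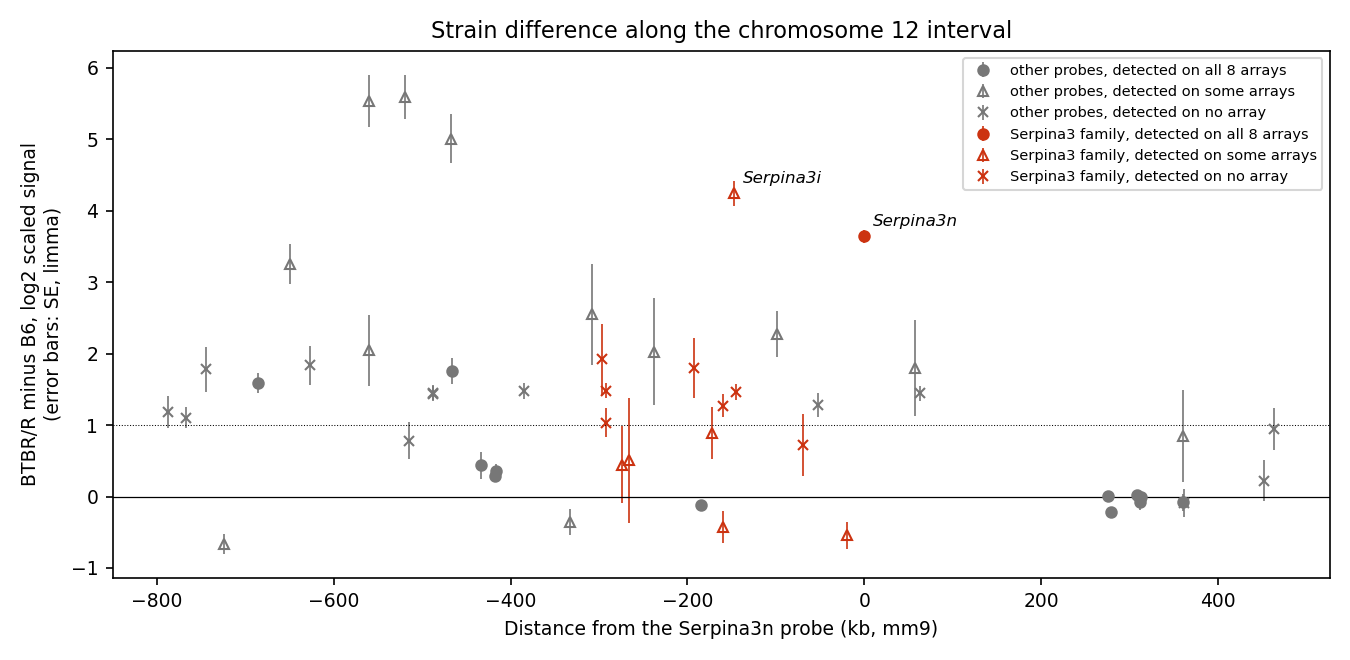
BTBR/R minus B6 difference (log2, with SE from limma, vertical axis) of the Serpina3 probes (red) and the 37 other probes of the interval (grey), by distance from the Serpina3n probe in kb (negative towards Serpina1). Circles were detected on all 8 arrays, open triangles on some and crosses on none; the circles after Serpina3n lie near 0, and the highest triangles on the left are Serpina1 probes.

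Promoters of 7 of the 10 members were matched by symbol in RefSeq sequences of GRCm38.p6 (8 promoters, 300 bases each, with none for Serpina3h, Serpina3k and Serpina3m). The Serpina3n promoter matched that of Serpina3c at 93.5% of aligned bases and that of Serpina3i at 77.5%. These 3 are printed because Serpina3n and the first Serpina3i probe were high in BTBR/R mice, whereas Serpina3c was detected in none of them. The second Serpina3i probe was well above background on no array. The Serpina3c promoter is the nearest in letters to that of Serpina3n. Each line gives the 250 bases before the start site. Capitals mark CATTTCCTAAGA, picked as the longest run that all these promoters but that of Serpina3a hold, which stands on either strand in 0.0365% of 32851 promoters of the same length, and the 9 letters further upstream that are described after the sequences.
Serpina3n, GRCm38.p6 chr12:104406458-104406707, plus strand: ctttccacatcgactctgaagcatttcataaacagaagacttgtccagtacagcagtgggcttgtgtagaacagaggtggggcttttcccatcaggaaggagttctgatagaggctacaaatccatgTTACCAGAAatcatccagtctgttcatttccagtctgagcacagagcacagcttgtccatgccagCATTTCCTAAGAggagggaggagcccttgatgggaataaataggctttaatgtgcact
Serpina3c, GRCm38.p6 chr12:104153873-104154122, minus strand: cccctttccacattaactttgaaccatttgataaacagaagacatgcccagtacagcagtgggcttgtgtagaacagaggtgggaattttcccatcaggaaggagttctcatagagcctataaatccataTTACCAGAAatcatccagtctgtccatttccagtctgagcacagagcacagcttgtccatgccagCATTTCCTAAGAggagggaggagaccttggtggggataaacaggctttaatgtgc
Serpina3i, GRCm38.p6 chr12:104262872-104263121, plus strand: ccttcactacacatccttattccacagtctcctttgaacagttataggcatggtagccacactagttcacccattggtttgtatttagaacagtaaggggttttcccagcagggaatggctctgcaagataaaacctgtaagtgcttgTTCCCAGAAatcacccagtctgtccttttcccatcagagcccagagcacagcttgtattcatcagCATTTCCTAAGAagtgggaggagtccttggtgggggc

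The motif TTCNNNGAA, the general form of a STAT binding site, was searched on both strands and reads the same on each. It was found in the promoters of Serpina3f (TTCCTAGAA), Serpina3g (TTCCCAGAA) and Serpina3i (TTCCCAGAA), and 8.3% of the 32851 promoters hold it. In place of it, Serpina3n and Serpina3c have TTACCAGAA, picked as the letters of the Serpina3n promoter nearest to the Serpina3i match. It differs from the Serpina3i letters by C3A, counted from 1 at the 5′ end of the run. It stands in 0.177% of promoters, a share of fixed letters that cannot be compared with that of a motif with free positions. The sequences are those of the B6 reference, and the BTBR/R sequence was not used here.

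Genes linked to the known roles of Serpina3n were listed with earlier results of these data known. None of the proteases that clade A serpins inhibit was called among probes detected on all 8 arrays (0 of 12 probes, median log2 difference -0.28, against 0.00145 over all 28547 probes so detected, of which 2.2% were called in either direction). Detection in every mouse leaves out probes that fell below background in 1 strain. One probe each of Ctsl and Ctsh, lysosomal cathepsins, was called lower and was detected in every B6 mouse and in no BTBR/R mouse (2 of 31 protease probes, where 2.27% of all probes were called lower and 730 of these had the same pattern of detection). Of the 31, 7 were called higher, 6 of them detected on no array, where 20.2% of all probes and 67.7% of those detected on no array were called higher. The remaining one was a probe of Mcpt1, detected in 1 BTBR/R mouse and in no B6 mouse (limma, adjusted p = 0.0200). Ctsl, Ctsh and Mcpt1 were picked after their values were seen. The Ctsl and Ctsh probes detected in every mouse differed by 0.12 for Ctsl and by -0.31 to 0.15 for Ctsh. None of the cytokine, receptor and transcription factor genes known to induce Serpina3n was called (0 of 34 probes, median 0.11). The same held for other genes of reactive astrocytes (0 of 34, median -0.05) and for genes of disease-associated oligodendrocytes (0 of 22, median -0.11). Without regard to detection, 4 of 58, 9 of 59 and 4 of 30 probes of these 3 lists were called higher, and 4, 9 and 3 of these were detected on no array, against the same shares of 20.2% and 67.7%. Of the other acute-phase genes, 1 of 11 probes was called, where 1.16% of all probes so detected were called lower, and this was Mt2, a metal-binding metallothionein, which fell by 1.19 on the log2 scale (limma, adjusted p = 0.000278). Of all 33 acute-phase probes, 10 were called higher, 9 of them detected on no array, again against 20.2% and 67.7%, and 2 were called lower, against 2.27%. The second of these was Hp, or haptoglobin, a plasma protein that binds free haemoglobin, which was detected in every B6 mouse and in no BTBR/R mouse, and whose B6 mean lay 1.13-fold above the detection limits of the BTBR/R arrays, the least fold these allow (limma, adjusted p = 0.0035; picked after its values were seen). The only probe called higher with any detection was that of Hamp, picked likewise. It was detected in 2 BTBR/R mice and in no B6 mouse, and was at least 2.06-fold higher by the limits of the B6 arrays (limma, adjusted p = 0.0305).

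Summed markers of astrocytes and oligodendrocytes were not higher in BTBR/R mice, with each gene taken by its brightest probe. The summed linear level of 11 astrocyte markers was 364 to 408 in B6 mice and 299 to 340 in BTBR/R mice, lower with no overlap, and 0 of the 11 genes were called. Of all 33 astrocyte probes, 3 were called higher, 2 of them detected on no array. Over the array, 20.2% of all probes and 67.7% of those detected on no array were called higher. Aldoc, a glycolytic aldolase, made up 66.8% to 71.5% of this sum and differed by -0.36 on the log2 scale (limma, adjusted p = 0.00433). Without it the sums were 107.1 to 118.5 in B6 mice and 94.8 to 111 in BTBR/R mice, which overlapped, and the median difference over the 23 astrocyte probes detected on all 8 arrays was -0.08. The sum of 12 oligodendrocyte markers was 239 to 304 in B6 mice and 214 to 244 in BTBR/R mice, which overlapped, with 0 genes called. Of all 22 oligodendrocyte probes, 1 was called higher, and it was detected on no array. The sum of 12 microglia markers was 140 to 150 in B6 mice and 126 to 136 in BTBR/R mice. Of all 16 microglia probes, 2 were called higher, 1 of them detected on no array, and 1 was called lower, where 2.27% of all probes were. Among the microglia markers C1qb, a complement subunit, fell by 1.42 on the log2 scale (limma, adjusted p = 8.42e-06). The probes of Cx3cr1, the fractalkine receptor, disagreed: one was called higher, with a log2 difference of 1.71 (limma, adjusted p = 7.59e-07), and the brighter one was at -0.71 (limma, adjusted p = 8.71e-05), short of 2-fold.

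Several members are best known from liver and plasma. Of 9 hepatocyte markers, 7 were not detected on all 8 arrays, among them Alb and Apoa1, and the summed level was 4.55 to 4.65 in B6 mice and 4.73 to 5.14 in BTBR/R mice, higher with no overlap. Apoa2, an apolipoprotein, made up 85.0% to 89.0% of it, and the sums of the 8 other genes overlapped (0.505 to 0.618 in B6 mice and 0.603 to 0.757 in BTBR/R mice). By the brightest probe, 6 of the 9 genes were called higher and 1 lower, where 20.2% of all probes were called higher, 67.7% of those detected on no array were, and 2.27% of all were called lower; 0 of the probes called higher were detected in every BTBR/R mouse. The summed level of 6 red blood cell genes was lower in BTBR/R mice, being 148 to 482 in B6 mice and 106 to 130 in BTBR/R mice, and Alas2, Hba-a1, Hba-a2 and Hbb-bt were called lower, by 1.01 to 1.36 on the log2 scale. Of the 7 red blood cell probes, all detected on all 8 arrays, 5 were called lower, where 1.16% of probes so detected were. The number called lower was 0 without B6 replicate 2 or 3 or any single BTBR/R mouse. It was 0 with the floor or the methods' t-test, and 1 with a replicate block. Hbb-b1 was not called (-1.003; limma, adjusted p = 0.0706), and Hbb-b2 went the other way without a call (0.63; limma, adjusted p = 0.228). Endothelial markers summed to 22.8 to 24.3 in B6 mice and 20.5 to 22.5 in BTBR/R mice, with 0 of 8 genes called by the brightest probe. Of all 14 endothelial probes, 1 was called higher and was detected on no array. Another 1 was called lower, and it was detected in every B6 mouse and in no BTBR/R mouse. Over all probes, 20.2% were called higher and 2.27% lower. Sums of neuron, striatal neuron and choroid plexus markers overlapped between the strains, with 0 genes called in each. The part of these markers in the Serpina3n difference was not tested.

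**Figure D4:**
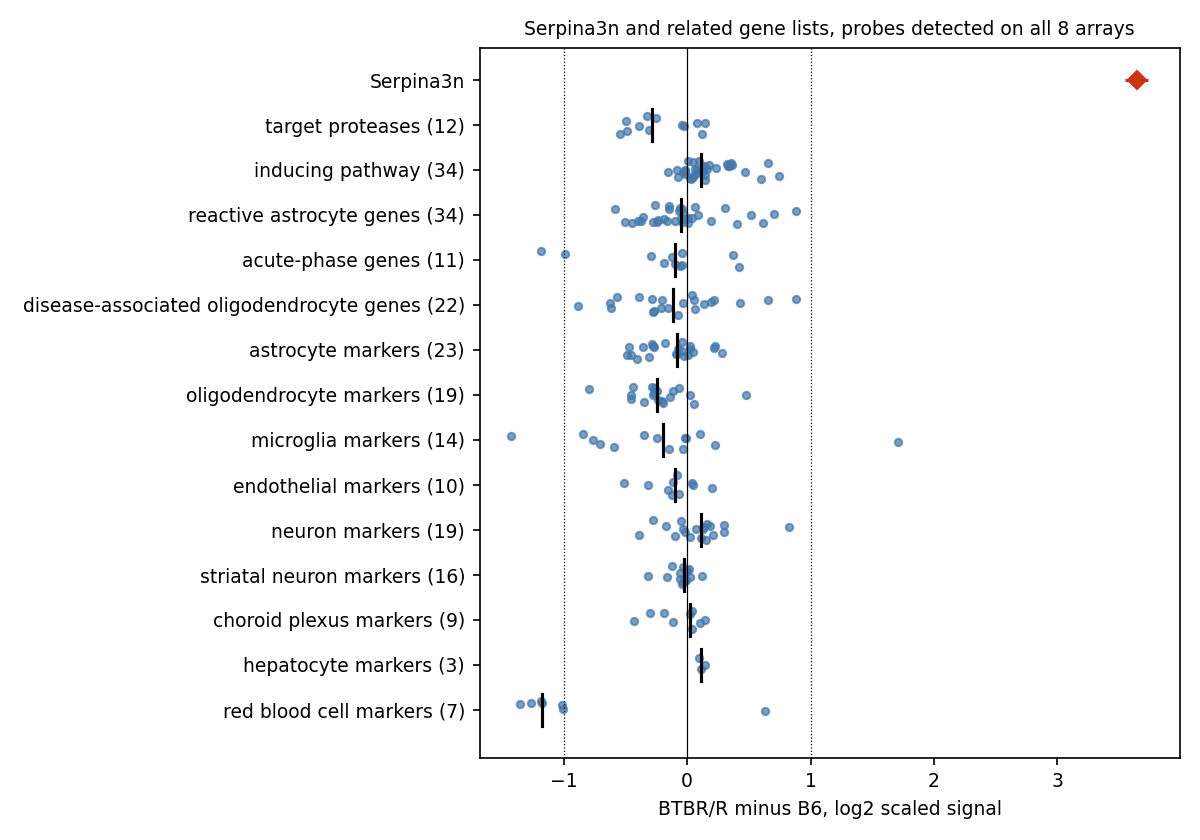
BTBR/R minus B6 difference (log2 scaled signal, horizontal axis) of the Serpina3n probe (red diamond, SE from limma) and of each probe detected on all 8 arrays in 14 gene lists (blue, number of probes in parentheses); black bars are medians and dotted lines mark 2-fold. Serpina3n at 3.64 lies to the right of every listed probe, and the list medians lie between -1.18 (red blood cell markers) and 0.11.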

How the data were processed

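The 8 arrays (SurePrint G3 mouse design, 1 mouse each) were grouped by the strain given with the samples, and the members and gene lists were chosen with earlier results of these data known. The authors deposited spot intensities from Agilent Feature Extraction 10.7.3.1, whose processed signal is background subtracted, and log2 values, which differed from log2 of that signal by 1 constant for each array, within 0.01 for 99.97% or more of its probes. Here, control and outlying spots were left out, repeated spots were averaged, each array was scaled by subtracting its 75th percentile of log2 processed signal, and the result was fitted with limma 3.58.1 (lmFit and eBayes, R 4.3.3) with Benjamini-Hochberg adjustment over 56605 probes. Tables and sequences used Python 3.11.15, and single comparisons used exact permutation tests. The fit was tested on simulated data. Precision is limited by 4 arrays per strain. The p-values measure the spread between these mice.

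A fold marked "at least" sets the brighter mean against the lowest signal detected on each array of the dimmer strain, or the probe's own signal where higher. The alternatives tried were quantile normalization, normexp background correction with an offset of 50, scaling by 7 spike-in probes, by detected probes or by the median, the log2 values of the authors, detection filters, a floor at the highest detection limit, the methods' t-test with Benjamini-Hochberg adjustment, limma's trend and robust options, a replicate block, and leaving out each mouse. The array annotation gave the probes' names and mm9 positions. Promoters and gene symbols came from RefSeq (GRCm38.p6). The genes named are all members and clade A serpins, called probes of the other lists that were detected on all 8 arrays (at most 4 per list), called neighbours so detected, and the genes whose signals were most like that of Serpina3n. Dicer1, Ctsl, Ctsh, Mcpt1, Hp, Hamp, Aldoc, Alb, Apoa1, Apoa2, Hbb-b1 and Hbb-b2 fall outside this rule and were chosen after their values were seen.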

Additional observations from a re-analysis of the deposited data

Results flagged for a closer look

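In 6 of 70 groups of 4 arrays examined, 1 mouse lay far from the other 3 of its strain, where chance alone gives about 1 in 20. In the family, Serpina3c (probe at 105385352 on chromosome 12, mm9) was at -3.44 and detected in B6 replicate 1, with the other B6 mice at -7.35 to -7.16. Serpina3a (probe at 105354762) was at -3.80 in BTBR/R replicate 2, with the others at -6.16 to -5.81, and it was not well above background in any of them. Serpina3f (probe at 105458989) was at -4.20 in BTBR/R replicate 1, with the others at -6.02 to -5.86, again without detection. Among the neighbours, Serpina3j was at -6.82 in B6 replicate 3, where no B6 mouse was detected. Serpina1f was at -4.23 in BTBR/R replicate 4, where no BTBR/R mouse was detected. Serpina9 (probe at 105235151) was at -0.27 in BTBR/R replicate 1, the mouse aged 6 months, with the others at -0.52 to -0.48, all detected.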

How the results depend on the processing

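The Serpina3n difference was called under all 20 alternatives, at 2.99 to 3.75 (3.58 to 3.69 when single mice were left out). Called family probes numbered 8, and 2 with normexp, quantile normalization, detection on every array of a strain or the floor, and 1 with detection on all 8 arrays. The 18 called neighbours became 3 with normexp, 8 with quantile normalization, 5 and 2 with those detection filters and 4 with the floor. Of 198 probes of the 5 lists on Serpina3n roles, 38 were called (34 higher, 4 lower). Of 157 probes of the 9 marker lists, 24 were called (16 higher, 8 lower). Over all probes, 22.4% were called in either direction. The 38 became 3, 5, 4, 1 and 1 in the same order, and the 24 became 6, 7, 8, 7 and 2. Without single mice the 4 counts of called probes were 7 to 9, 17 to 19, 37 to 42 and 17 to 24. Fewer probes were tested under the detection filters, and for the others the cause was not tested. With single mice left out, the Agt difference was -0.35 to 0.17 (above 0 without B6 replicate 1) and that of Serpina3b -0.022 to 0.91 (below 0 without BTBR/R replicate 3). Serpina10 was called at 1.84 without BTBR/R replicate 4. The difference between Serpina3n and Serpina3i, which gives no order because the B6 level of Serpina3i was below background, was -0.60, and 1.71 with normexp, 2.52 with the floor and -0.16 with quantile normalization (exact permutation p = 0.2). Scaling by spike-in probes moved the median of all probes from 0.07 to 0.18, and Serpina3n stood at 3.75 there.

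With single mice left out, the difference of Serpina3n from Serpina3b was 2.70 to 3.65 (exact permutation p of 0.0571 without B6 replicate 2 or 3), from Serpina3g 2.49 to 3.08, and from Serpina3i -0.70 to -0.52 (0.0571 without each BTBR/R mouse in turn). Replicate numbers did not pair the mice (correlations of same-numbered deviations -0.07 to 0.16). With a replicate block these differences were 3.20, 2.76 and -0.60, each at the smallest exact p the block allows, 0.125; 7 family probes, 17 neighbours, 36 probes of the role lists and 18 of the marker lists were called, and Serpina3n and Serpina3i were called. Detection limits the dim members, for which no setting gives a B6 level.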

Other observations

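Among the 28547 probes detected on all 8 arrays, those whose scaled signals followed Serpina3n most closely over the 8 arrays were Myl1, Dleu7, Cript, Map1b and Scg5, with Pearson r from 0.9985 to 0.9997. Their log2 differences between the strains were 2.92, 0.99, 0.99, 2.79 and 1.18, and none of them lies on chromosome 12. After the strain means were removed, the closest were BF471595, Pdf, Mrpl22, Tada1 and Gm3134, with r from 0.979 to 0.993 over the 8 deviations. Their log2 differences were 0.96, 0.12, -0.12, 0.09 and 0.51. These are the highest r values among 28547 probes, and how high r would reach by chance was not tested. These values are descriptions over 8 arrays that share 1 slide.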
